A study of Homo sapiens with 6 samples.

Results

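PIP5K1B and 8 other kinases that phosphorylate phosphatidylinositol or its mono-phosphates were followed in ARPE-19 cells kept in normal or high glucose. The 9 kinases are PIP5K1A, PIP5K1B and PIP5K1C (type I), PIP4K2A, PIP4K2B and PIP4K2C (type II), PI4KA and PI4KB, and PIKFYVE. Each was taken as the locus that holds its symbol and an annotated transcript, with the highest mean count where several did. They are 9 of 60835 loci in the table, and all 9 passed the filter on low counts that left 25025 loci for testing. The set was chosen because PIP5K1B was known to be much lower in high glucose in these same libraries, so the kinases' changes are given as a description, with no p-value. How many of them edgeR called is given once, beside the share of all loci called.

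ARPE-19 is an established human line derived from retinal pigment epithelium, the pigmented layer behind the photoreceptors. Wild-type cells were kept for 72 h in normal glucose medium (3 libraries) or in high glucose medium (3 libraries), and RNA of the whole culture was sequenced. No glucose concentration is given in the labels. Nor do they tell whether a group's 3 libraries were grown separately, so a p-value here covers library-to-library spread alone, possibly technical. In such bulk RNA, fewer cells that express a gene and less of its RNA per cell cannot be told apart.

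Phosphoinositides are membrane lipids built on inositol, whose head group is phosphorylated and dephosphorylated by dedicated kinases and phosphatases. PI4KA, at the plasma membrane, and PI4KB, at the Golgi, make phosphatidylinositol 4-phosphate. The type I kinases add a phosphate to it to make PI(4,5)P2, the lipid that phospholipase C cleaves, that PI3K phosphorylates, and that anchors actin-binding and endocytic proteins to the plasma membrane. The type II kinases make the same lipid from the rarer phosphatidylinositol 5-phosphate, and PIKfyve makes PI(3,5)P2 on endosomes and lysosomes. In the retinal pigment epithelium these lipids take part in membrane traffic and in the uptake of shed photoreceptor tips.

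The promoter sequences of 4 kinases are shown to set PIP5K1B beside kinases of different patterns: PIP4K2A and PI4KA, which after it had the widest gaps between groups among the kinases lower in high glucose, and PIP5K1C, the type I kinase with the opposite direction. Each is the 250 bases before the RefSeq start site on GRCh38.p14, which coincides with the start of the locus in the deposited table, and reads 5′ to 3′ on the gene's strand. Capitals mark matches, on either strand, to the GC box GGGCGG, the CCAAT box or the E-box CACGTG.
PIP5K1B, chr9:68704990-68705239, plus strand: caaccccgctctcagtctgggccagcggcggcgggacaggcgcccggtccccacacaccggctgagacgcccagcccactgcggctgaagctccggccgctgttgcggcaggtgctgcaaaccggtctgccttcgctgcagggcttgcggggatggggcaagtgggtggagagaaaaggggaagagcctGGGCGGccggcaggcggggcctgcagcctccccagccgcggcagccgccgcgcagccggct
PIP4K2A, chr10:22714579-22714828, minus strand: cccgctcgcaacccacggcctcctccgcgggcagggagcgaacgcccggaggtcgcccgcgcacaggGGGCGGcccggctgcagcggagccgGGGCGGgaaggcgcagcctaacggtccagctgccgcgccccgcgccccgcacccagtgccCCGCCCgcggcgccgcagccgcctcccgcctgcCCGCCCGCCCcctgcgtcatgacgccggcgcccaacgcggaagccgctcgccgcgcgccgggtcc
PI4KA, chr22:20858812-20859061, minus strand: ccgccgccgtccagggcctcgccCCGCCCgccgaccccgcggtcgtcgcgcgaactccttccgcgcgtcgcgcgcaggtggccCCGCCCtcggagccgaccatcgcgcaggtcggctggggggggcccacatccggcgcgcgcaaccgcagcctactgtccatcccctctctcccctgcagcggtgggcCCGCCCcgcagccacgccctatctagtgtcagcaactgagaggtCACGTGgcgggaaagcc
PIP5K1C, chr19:3700469-3700718, minus strand: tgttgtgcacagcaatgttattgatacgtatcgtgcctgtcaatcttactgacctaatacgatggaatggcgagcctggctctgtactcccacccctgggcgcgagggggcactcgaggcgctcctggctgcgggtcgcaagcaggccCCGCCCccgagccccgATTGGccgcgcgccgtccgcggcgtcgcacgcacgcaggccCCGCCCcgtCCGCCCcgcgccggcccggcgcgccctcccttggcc

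RefSeq gave a promoter for all 9 kinases, with 12 windows in all. The PIP5K1B window shown holds 1 GC box and is 74.0% G or C. The PIP4K2A window shown holds 5 GC boxes (82.8% G or C), that of PI4KA 3 GC boxes and 1 E-box (75.6%), and that of PIP5K1C 3 GC boxes and 1 CCAAT box (70.4%). PIP5K1B and PIP4K2A each have a second window, not shown, that holds no GC box and is 66% and 64.8% G or C. In 35116 RefSeq promoter windows of this length, a GC box occurred in 42.6%, a CCAAT box in 32.0% and an E-box in 6.35%. None of the 9 kinases' windows held the TATA box TATAAA (10.7% of all windows), the C/EBP-ATF element TGATGNAAT (0.889%), the cyclic AMP response element TGACGTCA (1.65%) or the NFAT5 core TGGAAA (18.0%). These are matches of letters in short windows and not measured sites.

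PIP5K1B makes PI(4,5)P2 from phosphatidylinositol 4-phosphate, and its locus spans chr9:68705240-69009176 on the plus strand. Levels of a kinase are given in CPM, the count relative to the library's total, which was corrected for differences in composition (TMM). PIP5K1B was at 101.1, 119.7 and 114.8 CPM in normal glucose 1, 2 and 3, and at 25.1, 25.6 and 22.8 CPM in high glucose 1, 2 and 3. The groups lay far apart, the lowest normal glucose library being 3.95 times the highest high glucose library, and the libraries of each group were close together. The mean was 111.9 ± 9.61 CPM in normal glucose and 24.5 ± 1.52 CPM in high glucose (SD, n = 3 each), a level 4.57-fold lower in high glucose and a log2 change of -2.19 (SE 0.12). Of the 25025 tested loci, 645 (2.58%) had a lower estimate, a place that describes PIP5K1B only, since it was chosen for this change.

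**Figure D1:**
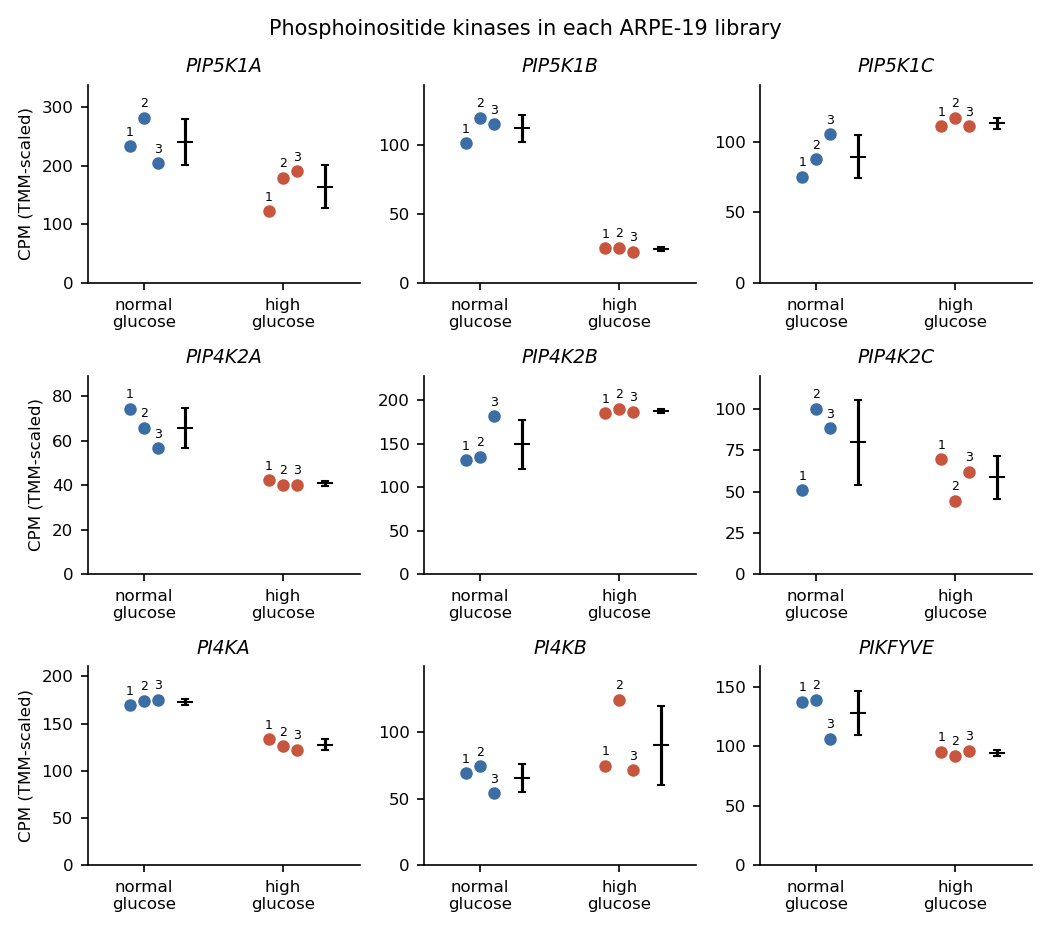
TMM-scaled CPM of the 9 kinases in each library, 1 panel a kinase, on axes that start at 0. Points numbered 1 to 3 are the libraries of normal and of high glucose, and the dash beside them is the mean with its SD. The PIP5K1B libraries of high glucose lie between 22.8 and 25.6 CPM, against 101.1 to 119.7 CPM in normal glucose, while the groups of PIP4K2C and PI4KB overlap.

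PIP5K1A, the type I kinase with the highest level per length, lies at chr1:151197949-151249536 on the plus strand. It was at 232.5, 281.7 and 204.3 CPM in normal glucose and at 122.6, 179.2 and 190.6 CPM in high glucose. The groups did not overlap, but only narrowly, since the lowest normal glucose library was 1.07 times the highest high glucose library, and high glucose 1 lay well below the other two. The means were 239.5 ± 39.2 and 164.1 ± 36.4 CPM (SD, n = 3 each), a log2 difference of -0.55 (SE 0.20) that moved to -0.37 without high glucose 1.

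PIP5K1C, the type I kinase known for its work at cell adhesions through talin, lies at chr19:3630183-3700468 on the minus strand and went the other way. It was at 75.2, 87.5 and 105.2 CPM in normal glucose and at 110.8, 117.1 and 110.8 CPM in high glucose. Every high glucose library was above every normal glucose library, and normal glucose 3 was the nearest to them. The means were 89.3 ± 15.1 and 112.9 ± 3.60 CPM (SD, n = 3 each), a log2 difference of 0.34 (SE 0.14), or 0.47 without normal glucose 3.

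Within type I, the weight of the 3 kinases therefore differed between the groups. Levels of different genes were compared only per length, with the authors' FPKM (fragments per kilobase, scaled to library size, where the length is the one the authors used and not the genomic span of the locus). PIP5K1B held 27.0%, 26.7% and 30.0% of the summed type I FPKM in normal glucose 1, 2 and 3, and 11.4%, 9.20% and 8.06% in high glucose. PIP5K1C held 14.4%, 14.0% and 19.7% in normal glucose and 36.1%, 30.1% and 28.2% in high glucose. Its own level was 10.1 ± 1.66 FPKM in normal and 13.1 ± 0.38 FPKM in high glucose (SD, n = 3 each). Part of the rise in its share is thus arithmetic, since the sum holds PIP5K1B, which was chosen for being lower. In every normal glucose library PIP5K1B had the larger share of these 2, and in every high glucose library PIP5K1C had it. The share of PIP5K1A was 56.0% ± 4.99 in normal and 59.0% ± 5.79 in high glucose, and its groups overlapped. The summed type I FPKM was 59.0, 70.7 and 59.9 in normal glucose and 35.9, 44.9 and 45.4 in high glucose, so every high glucose library was lower.

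**Figure D2:**
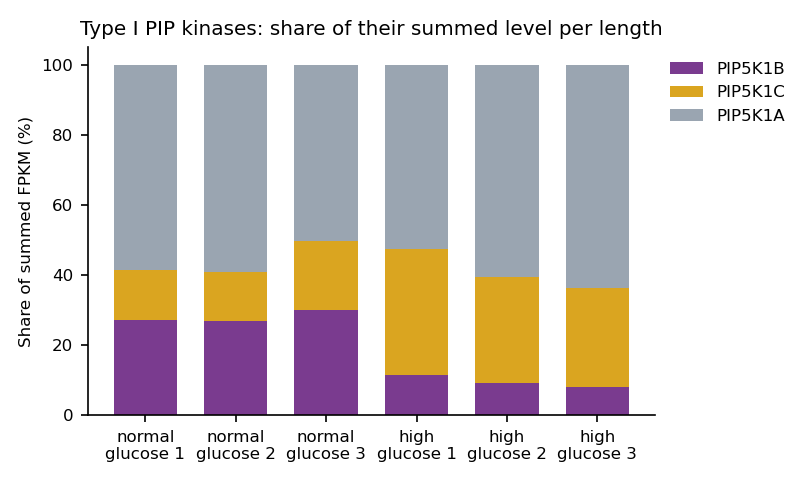
Share of the summed FPKM of PIP5K1A, PIP5K1B and PIP5K1C held by each, in percent, as a stacked bar for each of the 6 libraries. PIP5K1B holds 26.7% to 30.0% in normal glucose and 8.06% to 11.4% in high glucose, and PIP5K1A keeps the largest share in all 6 libraries.

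PI4KA, which supplies phosphatidylinositol 4-phosphate at the plasma membrane and so the substrate of the type I kinases, lies at chr22:20707691-20858811 on the minus strand. It was at 169.8, 174.2 and 175.5 CPM in normal glucose and at 133.6, 126.3 and 122.2 CPM in high glucose. The libraries within each group were close, the groups did not overlap, and the nearest libraries differed by a ratio of 1.27. The means were 173.1 ± 3.0 and 127.4 ± 5.78 CPM (SD, n = 3 each), a level 1.36-fold lower in high glucose and a log2 change of -0.44 (SE 0.09). Its pseudogenes PI4KAP1 (108 to 205 counts) and PI4KAP2 (812 to 1476 counts) are near-identical copies, so the counting could have split reads among them, and their log2 differences were -0.46 and -0.41.

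PI4KB, the Golgi enzyme that makes the same lipid, lies at chr1:151291797-151327715 on the minus strand. It was at 69.3, 74.4 and 54.1 CPM in normal glucose and at 74.7, 124.6 and 71.2 CPM in high glucose. The groups overlapped, and high glucose 2 stood well above the other 5 libraries. The log2 difference was 0.45 (SE 0.24) and moved to 0.15 without high glucose 2. PI4KA held 59.9% ± 4.19 of the summed FPKM of this pair in normal glucose and 45.3% ± 7.71 in high glucose (SD, n = 3 each), while the sum was 20.4 ± 1.31 and 20.7 ± 3.75 FPKM.

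Among the type II kinases, PIP4K2A (chr10:22534854-22714578, minus strand) was at 74.5, 65.9 and 56.8 CPM in normal glucose and at 42.2, 40.3 and 40.2 CPM in high glucose. The groups did not overlap, the nearest libraries differing by a ratio of 1.35, and the high glucose libraries were the closer to each other. The means were 65.7 ± 8.86 and 40.9 ± 1.13 CPM (SD, n = 3 each), 1.61-fold lower in high glucose, with a log2 change of -0.69 (SE 0.13). A second annotated PIP4K2A locus inside it held only 5 to 17 counts per library.

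PIP4K2B (chr17:38765689-38799905, minus strand), a type II kinase also found in the nucleus, was at 130.7, 135.1 and 181.7 CPM in normal glucose and at 185.1, 190.4 and 187.0 CPM in high glucose. The groups did not overlap, but normal glucose 3 lay just below the high glucose libraries, at a ratio of 1.02. The log2 difference was 0.33 (SE 0.14), and 0.50 without normal glucose 3. PIP4K2C (chr12:57591174-57603418, plus strand), a type II kinase with very low catalytic activity, was at 51.0, 100.4 and 88.4 CPM in normal glucose and at 69.7, 44.4 and 62.2 CPM in high glucose. These groups overlapped, normal glucose 1 being below 2 of the high glucose libraries, and the log2 difference of -0.44 (SE 0.28) ran from -0.68 without normal glucose 1 to -0.25 without normal glucose 2.

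The summed FPKM of the type II kinases was 50.4 ± 6.75 in normal and 47.2 ± 3.30 in high glucose (SD, n = 3 each), with overlapping groups. Within that sum PIP4K2A held 23.6% ± 6.56 and then 15.7% ± 0.79, PIP4K2B 38.7% ± 5.20 and then 53.6% ± 4.28, and PIP4K2C 37.7% ± 8.23 and then 30.7% ± 5.02, in the order normal, high glucose. PIP4K2B had the largest share of the 3 in every high glucose library, and also in normal glucose 1 (40.2%) and 3 (43.1%). In normal glucose 2 PIP4K2C had it, at 45.3% against 33.0% for PIP4K2B.

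PIKFYVE, the kinase of the endolysosomal lipid PI(3,5)P2, lies at chr2:208266255-208358746 on the plus strand. It was at 137.4, 139.1 and 106.2 CPM in normal glucose and at 95.1, 91.8 and 96.1 CPM in high glucose. The groups did not overlap, with normal glucose 3 between the other normal glucose libraries and the high glucose group. The means were 127.5 ± 18.5 and 94.3 ± 2.25 CPM (SD, n = 3 each), a log2 difference of -0.44 (SE 0.13), or -0.55 without normal glucose 3.

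A locus is referred to as called where its Benjamini-Hochberg adjusted p from edgeR's quasi-likelihood test over all tested loci was under 0.05. Of all tested loci 19.6% were called, 9.86% lower and 9.75% higher. Of those with a protein-coding transcript 25.5% were called, 12.4% lower and 13.1% higher. Beside these shares, 3 of the 9 kinases were called, all lower (PIP5K1B, PIP4K2A and PI4KA). That count turned on single libraries: without normal glucose 3, when 7615 loci in all were called, it was 6, with PIKFYVE lower and PIP5K1C and PIP4K2B higher in addition, and without any single high glucose library it was 1, PIP5K1B. Nothing is read from these counts, because the set was chosen on this contrast. The groups did not overlap for 7 kinases, 5 lower and 2 higher in high glucose, where 42.3% of all tested loci had groups that did not overlap, 20.5% lower and 21.8% higher. Of 13786 tested loci with a protein-coding transcript, 3251 were lower and 3572 higher without overlap. The median log2 difference of the 9 kinases was -0.44, against -0.004 over all tested loci. Over 17 alternative analyses the estimate for PIP5K1B ran from -2.26 to -1.91, that for PIP4K2A from -0.78 to -0.57, that for PI4KA from -0.48 to -0.37 and that for PIKFYVE from -0.55 to -0.34.

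The order of the kinases by FPKM also differed between the groups. In normal glucose PIP5K1A stood first at 35.5 ± 5.94 FPKM, above all libraries of the next kinase. PIP4K2B (19.5 ± 3.60), PIP4K2C (19.3 ± 6.23) and PIP5K1B (17.6 ± 1.51) followed and did not differ beyond their spread. PI4KA (12.2 ± 0.19), PIP4K2A (11.6 ± 1.60), PIP5K1C (10.1 ± 1.66), PIKFYVE (9.43 ± 1.41) and PI4KB (8.20 ± 1.34) came last, with each neighbour in that order overlapping the next (SD, n = 3 each).

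In high glucose PIP4K2B (25.2 ± 0.26 FPKM) and PIP5K1A (25.0 ± 5.37 FPKM) shared the top and overlapped. PIP4K2C (14.6 ± 3.32), PIP5K1C (13.1 ± 0.38), PI4KB (11.5 ± 3.78) and PI4KA (9.20 ± 0.49) formed the middle, neighbours again overlapping. PIP4K2A (7.40 ± 0.26) and PIKFYVE (7.17 ± 0.19) were lower than that middle group. PIP5K1B was last at 3.96 ± 0.26 FPKM, its 3 libraries below every library of the other 8 kinases (SD, n = 3 each). It had been the fourth of the 9 in normal glucose.

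**Figure D3:**
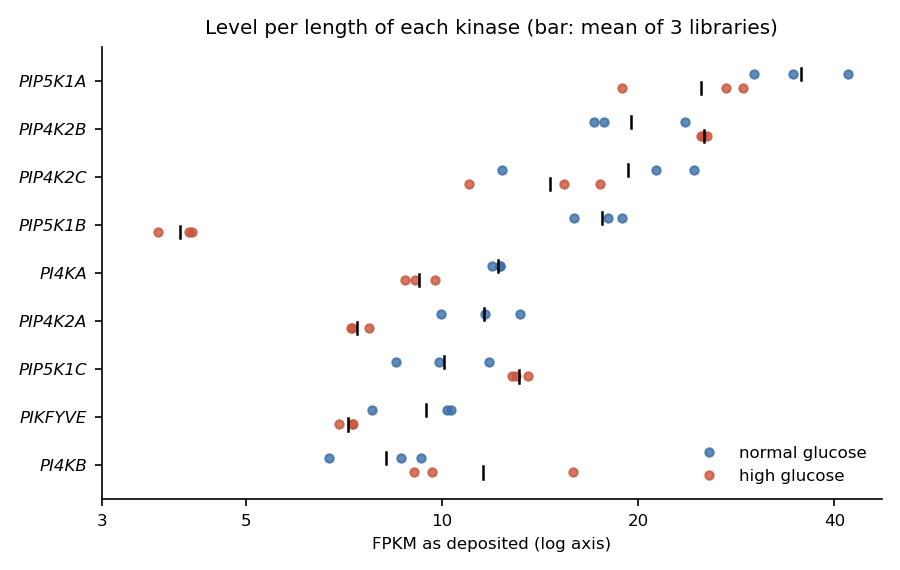
FPKM of the 9 kinases in the 3 normal glucose and the 3 high glucose libraries, on a log axis, with dashes at the means and the kinases ordered by their mean in normal glucose. PIP5K1B moves from the fourth place, at 17.6 FPKM, to the last, at 3.96 FPKM.

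Each library held between 81616741 and 87748820 counts. A principal component analysis of all tested loci put the groups apart on its first component (49.7% of the variance), and the second (18.0%) set normal glucose 3 apart from the other 5 libraries. Of the markers of retinal pigment epithelium listed, 6 of 15 reached a mean of 1 FPKM. The list's summed FPKM was 102 to 191 in normal and 402 to 425 in high glucose. Most of it came from KRT8 and KRT18, both called higher, and BEST1 was called lower. Besides KRT8 and KRT18, those at a mean of 1 FPKM were MITF, OTX2, SERPINF1 and RDH5, whose locus also holds BLOC1S1. The listed genes RPE65, TYR, DCT and TTR were at or near 0 in all libraries. Fibroblast markers summed to 14.9 to 26.0 FPKM in normal and 22.7 to 22.9 FPKM in high glucose (3 of 8 at a mean of 1 FPKM), with PDGFRB called higher (11.3 ± 0.58 to 18.6 ± 0.17 FPKM) and COL1A1 lower (4.11 ± 3.32 to 0.744 ± 0.038 FPKM, SD, n = 3 each). Of 4 blood cell markers only CD68, whose locus also holds SENP3 and EIF4A1, reached 1 FPKM (list sum 22.8 to 31.3 and 28.9 to 37.9 FPKM), and CD3E was at 0. The part of these marker differences in the kinases' differences was not tested.

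Normal glucose 3 did not take the same place for all kinases. For PIP5K1B it was 2.23 above the mean of the high glucose libraries in log2 CPM, against 2.17 for the mean of normal glucose 1 and 2, and for PI4KA the values were 0.46 and 0.43. For PIP5K1A it was 0.34 above, against 0.67, for PIP4K2A 0.47 against 0.78, and for PIKFYVE 0.17 against 0.55. For PIP5K1C the values were -0.10 and -0.48 and for PIP4K2B -0.05 and -0.50, so for these 5 kinases normal glucose 3 lay nearer to high glucose than its group did. For PIP4K2C (0.61 and 0.31) and PI4KB (-0.69 and -0.28) it lay farther away.

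The neighbourhood of PIP5K1B on chromosome 9 was examined because its locus is long and holds another gene. FAM122A, a gene without introns, lies inside it on the same strand (chr9:68780065-68785566), so that reads of the 2 genes may have been shared. FAM122A was at 39.2, 40.7 and 33.6 CPM in normal glucose and at 44.9, 43.2 and 45.5 CPM in high glucose. It was thus slightly higher in every high glucose library, the opposite of PIP5K1B, with a log2 difference of 0.24 (SE 0.12, adjusted p = 0.2).

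The neighbours reported here, taken from the 5 nearest tested and named loci on each side, were not called. Downstream, FAM189A2 had a log2 difference of -0.65 (adjusted p = 0.129), APBA1 of -0.28 (adjusted p = 0.238) and PTAR1 of -0.31 (adjusted p = 0.279). A second, rarely counted APBA1 locus (0 to 15 counts in normal and 16 to 48 in high glucose) had one of 1.53 (adjusted p = 0.372). Upstream, TMEM252 (-0.14), PGM5 (0.03), PGM5-AS1 (0.30), FOXD4L3 (-0.26) and CBWD3 (0.20) had adjusted p values from 0.428 to 0.882. PTAR1 was called without normal glucose 3 (adjusted p = 0.00606).

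**Figure D4:**
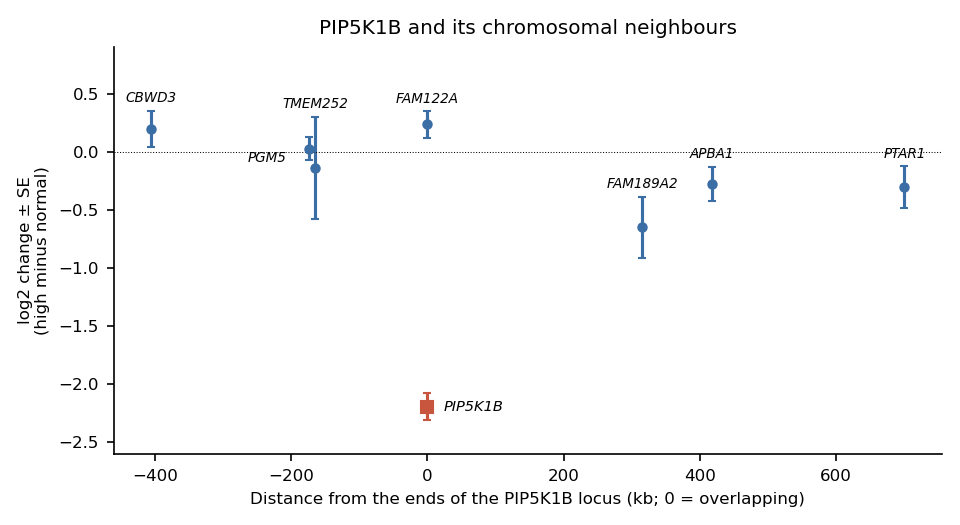
Log2 difference, high minus normal glucose, of PIP5K1B and of the neighbouring loci reported here with summed group means over 2 CPM, against distance from the PIP5K1B locus in kb, with bars for the SE. PIP5K1B stands at -2.19, and the neighbours drawn lie between -0.65 and 0.24.

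The loci whose pattern was most like that of PIP5K1B were found by Pearson's r of log2 CPM over the 6 libraries, among 13353 named loci with a mean of at least 1 CPM. They were TIMP3, an inhibitor of matrix metalloproteinases (r = 0.9997), ARHGEF11, a guanine nucleotide exchange factor (r = 0.9995), RFC1, the large subunit of the clamp loader of DNA replication (r = 0.9984), DCAF1, a substrate receptor of a ubiquitin ligase (r = 0.9984), and EIF3L, a translation initiation factor whose locus also holds MICALL1 (r = 0.9978). RFC1 came close to PIP5K1B in size, at 319 ± 41.0 CPM in normal and 74.3 ± 1.38 CPM in high glucose (SD, n = 3 each), a log2 change of -2.10. The changes of TIMP3 (-0.78), ARHGEF11 (-0.83), DCAF1 (-0.52) and EIF3L (-0.89) were smaller. All r values here are over the same 6 libraries, which fall into 2 groups that each of these loci separates, and they carry no test. Among the kinases, r with PIP5K1B was 0.99 for PI4KA, 0.93 for PIP4K2A, 0.84 for PIKFYVE, 0.75 for PIP5K1A and 0.53 for PIP4K2C, and it was -0.56 for PI4KB, -0.73 for PIP4K2B and -0.74 for PIP5K1C.

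Around the kinases, 12 lists with 150 other genes of phosphoinositide metabolism were followed, of which 144 were tested. Of these, 15 rose and 28 fell in high glucose (29.9% called), beside 19.6% of all tested loci and 25.5% of tested loci with a protein-coding transcript. Their median log2 difference was -0.05, against -0.004 over all tested loci. By list the share called ran from 15.4% (inositol polyphosphate kinases and IP3 receptors) to 43.8% (5- and 4-phosphatases). It was also below 25.5% in the lists of 3-phosphatases (18.8%), small GTPases and partners (18.2%) and phosphatidylinositol synthesis and transfer (20%). Nothing is read from the count of a single list. The called counts turned on single libraries. Omitting normal glucose 1, 2 or 3 in turn left 6, 5 or 28 genes higher and 15, 15 or 37 lower, and omitting high glucose 1, 2 or 3 left 4, 4 or 3 higher and 10, 7 or 10 lower. Called with every one of the 6 omissions were 9 of the 43 genes, namely INPP5F, PLCD1 and VCL, which rose, and PIK3C2A, PIP4P1, MTMR10, PLCL1, SLC5A3 and AJUBA, which fell.

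**Figure D5:**
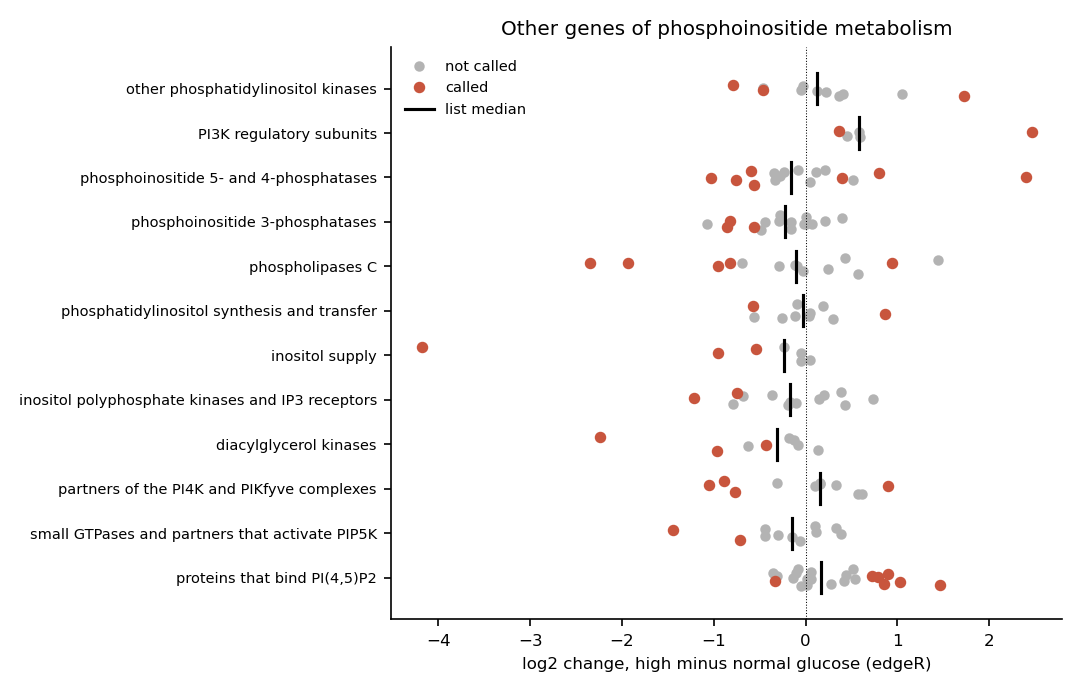
Log2 difference, high minus normal glucose, of each tested gene of the 12 phosphoinositide lists, one row a list, with called and not called genes marked and a line at each list's median. Of the 144 genes, 15 are called higher and 28 lower, and the list medians lie between -0.31 and 0.58.

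Among partners of the PI4K and PIKfyve complexes 1 of 11 rose and 3 fell, with a median of 0.15. VAC14, the scaffold that holds PIKfyve and its opposing phosphatase FIG4, was at 135, 148 and 95.4 CPM in normal glucose and at 58.2, 58.0 and 65.9 CPM in high glucose, and fell by 1.06 on the log2 scale (SE 0.17, adjusted p = 0.0096). It was called in 5 of 6 omissions (adjusted p = 0.0533 without high glucose 2). FIG4 had a log2 difference of -0.24 (adjusted p = 0.152). The called genes of the complex that carries PI4KA to the plasma membrane went both ways. Of its TTC7 scaffolds, TTC7A rose by 0.90 (29.8 ± 2.31 to 55.5 ± 9.40 CPM, SD, n = 3 each, adjusted p = 0.0109) and TTC7B fell by 0.77 (adjusted p = 0.012). Each was called in 4 of 6 omissions, the exceptions being high glucose 1 and 3. EFR3A, a membrane anchor of the complex, fell by 0.89 (adjusted p = 0.0196) but was called in 1 of 6 omissions. EFR3B had a log2 difference of 0.57 (adjusted p = 0.55), with overlapping groups. HYCC1 (0.15), HYCC2 (0.33) and TMEM150A (0.61) of the same list were not called either.

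Of 11 small GTPases and partners that activate the type I kinases, none rose and 2 fell, with a median of -0.14. That is 18.2% called, beside 19.6% of all tested loci. AJUBA, a LIM protein that binds PIP5K1A and stimulates it, shares its locus with HAUS4. That locus was at 445, 549 and 424 CPM in normal glucose and at 170, 167 and 184 CPM in high glucose, a log2 change of -1.45 (SE 0.13, adjusted p = 0.00232). DVL3, a Wnt signal protein, fell by 0.71 (adjusted p = 0.015) and was called in each omission of a normal glucose library and in none of a high glucose library. ARF6, a direct activator of the type I kinases, was at 70.8 to 128 CPM in normal and 56.4 to 102 CPM in high glucose, with overlapping groups (log2 difference -0.44, adjusted p = 0.327). TLN1, a talin that recruits PIP5K1C, had a log2 difference of 0.33 (adjusted p = 0.0686). The other listed talin, TLN2, had one of -0.06 (adjusted p = 0.769), with overlapping groups.

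Among the other phosphatidylinositol kinases 1 of 11 rose and 2 fell, with a median of 0.12. PIK3C2A, a class II PI3K of endocytosis, was at 269, 267 and 222 CPM in normal glucose and at 141, 150 and 145 CPM in high glucose, and fell by 0.80 (SE 0.11, adjusted p = 0.00612). Its paralog PIK3C2B rose by 1.73 (SE 0.39, adjusted p = 0.0248), from 10.2, 8.43 and 24.7 CPM to 44.8, 47.0 and 51.6 CPM, and PIK3CA, a catalytic subunit of class I PI3K, fell by 0.46 (adjusted p = 0.03). Both were called in 1 omission, that of normal glucose 3. PI4K2A, a further source of phosphatidylinositol 4-phosphate, had a log2 difference of -0.05 (adjusted p = 0.767). Of 5 tested genes listed with the PI3K regulatory subunits 2 rose, with a median of 0.58. They were PIK3IP1, an inhibitor of PI3K rather than a subunit (log2 change 2.46, adjusted p = 0.0261), and PIK3R4, the class III subunit (0.36, adjusted p = 0.0449). PIK3IP1 was called without normal glucose 3 or high glucose 1 and PIK3R4 without normal glucose 3, and neither with the other omissions.

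Of the 16 phosphatases that remove the 5- or 4-phosphate, 3 rose and 4 fell, with a median of -0.16. PIP4P1, a 4-phosphatase of PI(4,5)P2, was at 40.8, 46.9 and 40.7 CPM in normal glucose and at 21.1, 19.9 and 21.9 CPM in high glucose, a log2 change of -1.03 (SE 0.12, adjusted p = 0.00354). Its paralog PIP4P2 fell by 0.76 (adjusted p = 0.00838) and was called in all omissions but that of high glucose 2 (adjusted p = 0.0509). INPP5F, a phosphatase of phosphatidylinositol 4-phosphate on endosomes, rose from 19.3, 18.4 and 17.9 CPM to 33.5, 33.5 and 29.7 CPM (log2 change 0.80, SE 0.12, adjusted p = 0.0069). OCRL (0.40, adjusted p = 0.0457) and the rarely counted INPP5D (2.40, adjusted p = 0.0394, 4 to 16 counts in normal and 34 to 58 in high glucose) rose, and INPP5B fell by 0.56 (adjusted p = 0.0375), each called in 1 omission, that of normal glucose 3. Of 16 genes listed as phosphatases of the 3-phosphate or their inactive relatives, none rose and 3 fell (18.8% called), with a median of -0.22. Those that fell were MTMR10, an inactive myotubularin, from 67.4 ± 3.49 to 37.4 ± 2.47 CPM (SD, n = 3 each, log2 change -0.85, adjusted p = 0.00465), MTMR4 (-0.82, adjusted p = 0.0218) and MTM1 (-0.57, adjusted p = 0.0409). MTMR4 was called in 1 omission and MTM1 in 2.

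Of 14 genes listed as phospholipases C, which cleave PI(4,5)P2, or their inactive relatives, 1 rose and 4 fell, with a median of -0.10. PLCD1 rose from 17.7, 14.9 and 19.0 CPM to 33.1, 34.2 and 31.5 CPM (log2 change 0.94, SE 0.13, adjusted p = 0.00647). PLCL1, a catalytically inactive relative, fell from 3.07 ± 0.997 to 0.601 ± 0.127 CPM (SD, n = 3 each, log2 change -2.35, adjusted p = 0.00622), PLCG2 fell by 0.95 (adjusted p = 0.0108) and PLCB4 by 0.83 (adjusted p = 0.0179). PLCG2 was called in 4 omissions and PLCB4 in 2. Downstream of these enzymes, 2 of 13 inositol polyphosphate kinases and IP3 receptors fell (median -0.17), ITPR3, an IP3-gated calcium channel, by 0.75 (adjusted p = 0.0147, called in 3 omissions) and ITPK1 by 1.21 (adjusted p = 0.0427, called in 1). Of 8 tested diacylglycerol kinases 3 fell (median -0.31), DGKG, in a locus with ETV5, by 0.96 (adjusted p = 0.0138, called in 3 omissions), DGKE by 2.24 (adjusted p = 0.0182, called in 1) and DGKQ by 0.44 (adjusted p = 0.0416, called in 1). None rose in these last 2 lists.

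Of 10 genes of phosphatidylinositol synthesis and transfer, 1 rose and 1 fell, with a median of -0.03. TAMM41, the mitochondrial CDP-diacylglycerol synthase, rose by 0.86 (adjusted p = 0.0449, called in 1 omission) and CDS1, which makes the CDP-diacylglycerol used for phosphatidylinositol, fell by 0.57 (adjusted p = 0.028, called in 2). In the inositol supply list none of 7 tested rose and 3 fell, with a median of -0.23. SLC5A3, the sodium-coupled inositol importer, whose locus also holds MRPS6, was at 1563, 2165 and 3029 CPM in normal glucose and at 128, 116 and 129 CPM in high glucose (log2 change -4.18, SE 0.26, adjusted p = 0.001). IMPA1, an inositol monophosphatase (-0.55, adjusted p = 0.0416), and SLC2A13, a proton-coupled inositol transporter (-0.95, adjusted p = 0.0424), fell too, each called in 1 omission, that of normal glucose 3.

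Of 22 proteins that bind PI(4,5)P2, the lipid the type I kinases make, or are subunits of a complex that does, 6 rose and 1 fell, with a median of 0.17. VCL, vinculin of the cell adhesions, was at 282, 229 and 388 CPM in normal glucose and at 825, 808 and 841 CPM in high glucose, a log2 change of 1.46 (SE 0.19, adjusted p = 0.00516). AP2S1 (0.79, adjusted p = 0.0168) and AP2B1 (0.86, adjusted p = 0.0399), subunits of the endocytic clathrin adaptor, rose, as did EZR (1.03, adjusted p = 0.0418) and MSN (0.73, adjusted p = 0.0363), which link actin to the membrane, and MARCKSL1 (0.90, adjusted p = 0.022). DNM2, the dynamin that severs endocytic vesicles, fell by 0.34 (adjusted p = 0.0437). Apart from VCL, each of these 6 was called in 1 omission only, that of normal glucose 1 for AP2B1 and of normal glucose 3 for the others.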

How the data were processed

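RNA of 3 normal and 3 high glucose ARPE-19 libraries was analysed from 1 table of 60835 loci. Per the file headers, the authors deposited for each library whole-number counts, not normalized, and FPKM, which they scaled for a length of their own and depth. Bowtie 0.12.2 and the mouse build mm8 appear in the submitters' processing notes, whereas identifiers and coordinates are human, and 99.7% of 33520 comparable symbols overlapped their GRCh38.p14 position. The counting tool and its use of strand are not given in the sources used here. Counts of 4 were more frequent (9555 values) than of 3 (4210) or 5 (2659), so counts may not equal fragments. All 37 mitochondrial loci are at 0 and were left out, and 2239 loci hold several names.

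Loci kept by filterByExpr were fitted with edgeR 4.0.16 (R 4.3.3, TMM, glmQLFit, glmQLFTest, 2-sided, group only, Benjamini-Hochberg over 25025 loci). SE is the estimate's size divided by the square root of F. The steps were tested on simulated data. Alternatives were DESeq2 1.42.0, limma 3.58.1 on log2(FPKM + 1) or log2(FPKM + 0.1), other scalings and filters, counts divided by 4, a replicate block and the omission of each library. Named genes are the 9 kinases, up to 3 called genes per list and direction by adjusted p, 5 neighbours a side and 5 most alike loci. FIG4, EFR3B, HYCC1, HYCC2, TMEM150A, EZR, MSN, AP2B1, ARF6, TLN1, TLN2 and PI4K2A were named after their values were seen. The kinases and lists were chosen with earlier results of these data known. Some genes that met the rule are not reported here.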

Additional observations from a re-analysis of the deposited data

How the results depend on the processing

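Precision is limited by 3 libraries a group rather than by depth. All replicates of a group differed by more than sampling noise. Called loci ranged from 1421 to 7615 over the 6 omissions (main value 4906), higher from 730 to 3932 and lower from 691 to 3683. Called list genes ranged from 11 to 65 (main value 43), higher from 3 to 28 and lower from 7 to 37. With the replicate block 2545 loci were called (1312 higher, 1233 lower), and 26 list genes, 15 of them lower. Libraries share only a number: deviations of same-numbered libraries correlated at -0.017, -0.00076 and -0.0094, so no pairing was assumed. The PIP5K1B change was -1.91 on the log2(FPKM + 1) scale at either filter, a scale that shrinks changes of low genes. Over the omissions TMEM252 ran from -0.52 to 0.19 (0.11 without normal glucose 1), PGM5 from -0.034 without normal glucose 3 to 0.085, and PGM5-AS1 from -0.17 to 0.50. Of the estimates of the kinases' changes, 149 moved by less than the spread between libraries and 4 by more.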
